A study of Homo sapiens with 12 samples.

Results

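Cyclosporine A (CSA) was compared with its structural analog voclosporin (VCS) in 6 of the 12 libraries of the series, 3 from cultures given CSA and 3 from cultures given VCS, each compound at 100 nM for 24 h. The libraries were assigned by the treatment in their labels, and all 19784 genes that passed a filter on low counts were described. The cells of all groups were the conditionally immortalized human podocyte line that carries a temperature-sensitive SV40 T gene, a single line, moved to the non-permissive temperature for differentiation before treatment. Cultures given tacrolimus (TAC) at 100 nM for 24 h and vehicle cultures given DMSO, 3 libraries each, are used to place each value.

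CSA and VCS are cyclic peptides. Each binds cyclophilins, and the complex blocks calcineurin, the calcium-dependent phosphatase that dephosphorylates NFAT transcription factors so that they enter the nucleus. VCS differs from CSA by a carbon extension of the side chain of its butenyl-methyl-threonine residue. TAC, a macrolide, reaches calcineurin through FKBP immunophilins instead. In podocytes calcineurin is also known for its action on synaptopodin, a protein of the actin cytoskeleton, and calcineurin inhibitors are used against proteinuria.

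Total counts were 34193951, 31009131 and 36077072 in CSA libraries 1, 2 and 3 and 31526324, 33362551 and 28808213 in VCS libraries 1, 2 and 3. Mitochondrially encoded transcripts took 5.82, 7.48 and 9.68% of the CSA counts and 6.18, 5.90 and 13.4% of the VCS counts. VCS 3 stood apart from the other 5 libraries on the first principal component of log2 CPM (counts scaled to the size of each library), which held 35.2% of the variance: its score was 58.3, against -14.0, -0.498 and 18.6 in CSA and -26.3 and -36.1 in the other VCS libraries. Transcripts that define podocytes were uneven in both groups. SYNPO, which encodes synaptopodin, was at 58.1, 54.3 and 67.3 CPM in CSA and 61.8, 59.9 and 48.3 CPM in VCS, while WT1, the podocyte transcription factor, was at 1.09, 0.637 and 0.840 CPM in CSA and 1.34, 1.39 and 0.787 CPM in VCS. NPHS1, which encodes nephrin of the slit diaphragm, had 6, 11 and 4 counts in CSA and 6, 1 and 7 in VCS and was too low to test.

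Few genes differed between the 2 compounds. Of 19784 genes, 6 passed an adjusted p under 0.05 (0.0303%), in edgeR's quasi-likelihood test with replicate number as a block. In CSA 5 were lower (0.0253%): SFTPA1, SFTPA2, KRT5, KRT14 and LTF, all transcripts of lung, basal or secretory epithelia. In CSA 1 was higher (0.00505%): ENSG00000196656, a processed pseudogene of the ribosomal protein gene RPS26. At an unadjusted p under 0.05 stood 1244 genes (6.29%), 692 higher (3.5%) and 552 lower (2.79%) in CSA. The median log2 fold change, CSA minus VCS throughout, was 0.00094 over all genes tested, and 9948 of them (50.3%) were above 0. Without the replicate block 2 genes passed, SFTPA1 and ENSG00000196656. The count was 3 without CSA 2, 3 without TAC 2, 1 without VCS 2 and 13 without VCS 1, and it was 15 without the 4 libraries numbered 3. What the replicates were is not given, so the p-values measure the spread between these libraries, which may be technical.

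A p that misses the threshold does not show that the compounds act alike, so the 95% interval of each log2 fold change was read as well. It lay within plus or minus 1, a 2-fold difference either way, for 15571 of 19783 genes (78.7%), and within plus or minus 0.5 for 11872 genes (60.0%). Among 10164 genes with a mean of at least 10 CPM over the 6 libraries, 10138 (99.7%) had an interval within plus or minus 1 and 9909 (97.5%) within plus or minus 0.5, with a median half-width of 0.184. The intervals that leave a 2-fold difference possible therefore belong mostly to weakly expressed genes.

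**Figure D1:**
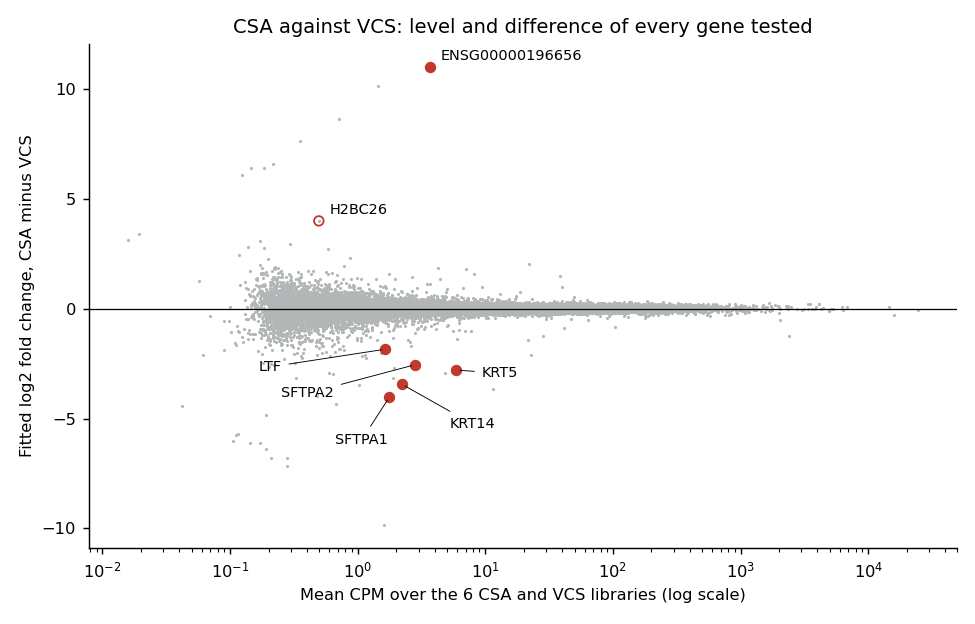
Each point is 1 of the 19784 genes tested, at its mean CPM over the 6 CSA and VCS libraries (x, log scale) and its fitted log2 fold change, CSA minus VCS (y). Filled red points are the 6 genes with an adjusted p under 0.05 and the open circle is H2BC26, just outside it. The 5 lower genes lie between 1 and 10 CPM, and well-expressed genes stay near 0. The fitted value of ENSG00000196656, which had no count in VCS, depends on the prior count.

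The 5 genes that were lower in CSA shared a pattern over the libraries. SFTPA1 (ENSG00000122852, chr10:79610939-79615455, plus strand, GRCh38), which encodes the lung collectin surfactant protein A1, was at 0.265, 0.223 and 0.116 CPM in CSA and 4.74, 3.18 and 2.11 CPM in VCS. SFTPA2 (chr10:79555852-79560402, minus strand), its neighbour and near copy, was at 0.853, 1.05 and 0.464 CPM in CSA and 7.39, 4.58 and 2.50 CPM in VCS. The highest CSA library lay under the lowest VCS library for both, and among the VCS libraries VCS 1 was the highest and VCS 3 the lowest. The fitted log2 fold change was -4.02 for SFTPA1 (SE 0.38, adjusted p = 0.00362) and -2.55 for SFTPA2 (SE 0.29, adjusted p = 0.00811).

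The coding sequences of both surfactant genes were aligned because reads could be split between them. Over 747 aligned bases 732 were identical (98.0%), and 32.8% of the 31-base words of the SFTPA1 transcripts also occur in transcripts of SFTPA2. The first 120 aligned bases of each coding sequence follow, from GENCODE 29 transcripts on GRCh38, 5′ to 3′, with the bases that differ in capitals.
SFTPA1: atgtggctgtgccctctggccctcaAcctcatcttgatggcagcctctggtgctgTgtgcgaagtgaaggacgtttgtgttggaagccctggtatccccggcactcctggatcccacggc
SFTPA2: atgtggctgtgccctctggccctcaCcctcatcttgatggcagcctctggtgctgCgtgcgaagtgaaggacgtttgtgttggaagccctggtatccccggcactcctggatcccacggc
In this stretch 2 bases differ, so short reads from it can be placed on either gene unless they cover a differing base. Summed over both genes, the level was 1.12, 1.27 and 0.580 CPM in CSA and 12.1, 7.76 and 4.61 CPM in VCS, a log2 fold change of -3.0 (SE 0.25, adjusted p = 0.000996 in edgeR). The difference between the compounds was thus present in the sum as well as in each copy.

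KRT5 and KRT14 encode the keratin pair of basal epithelial cells. KRT5 (chr12:52514575-52520687, minus strand) was at 1.32, 1.97 and 0.927 CPM in CSA and 16.3, 10.2 and 4.94 CPM in VCS (log2 fold change -2.79, SE 0.29, adjusted p = 0.00463). KRT14 (chr17:41582279-41586921, minus strand) was at 0.294, 0.287 and 0.435 CPM in CSA and 6.37, 4.54 and 1.47 CPM in VCS (-3.45, SE 0.45, adjusted p = 0.0226). LTF (chr3:46435645-46485234, minus strand), which encodes the secreted iron-binding protein lactoferrin, was at 0.823, 0.764 and 0.493 CPM in CSA and 3.84, 2.39 and 1.5 CPM in VCS (-1.84, SE 0.26, adjusted p = 0.0355). Each of these genes was highest in VCS 1 and lowest in VCS 3 among the VCS libraries, with no overlap with CSA. Of KRT14's 31-base words 33.0% occur in other genes' transcripts, among them keratin pseudogenes, against 4.04% for KRT5 and 0 for LTF. With each of the 12 libraries left out in turn, KRT14 passed 5 times (adjusted p up to 0.250, without CSA 2) and LTF 2 times (up to 0.273, without VCS 2).

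The other groups place these 5 genes. In TAC they were near the CSA level, with KRT5 at 2.42, 1.19 and 1.20 CPM and SFTPA1 at 0.363, 0.119 and 0.0307 CPM. In DMSO they were near the VCS level, with KRT5 at 12.9, 5.50 and 5.47 CPM and SFTPA1 at 4.26, 3.04 and 3.86 CPM. For 5 of 5 genes every CSA and TAC library lay under every VCS and DMSO library, as did 20 of all genes tested (0.101%). The order of CSA and VCS in this pattern is fixed in part by how the 5 genes were chosen. Against DMSO, the log2 fold changes under CSA were -4.25 for SFTPA1, -2.49 for SFTPA2, -2.43 for KRT5, -3.0 for KRT14 and -1.62 for LTF. Under VCS those against DMSO were -0.22 for SFTPA1, 0.06 for SFTPA2, 0.37 for KRT5, 0.45 for KRT14 and 0.22 for LTF. These comparisons share the DMSO libraries. In bulk RNA, fewer cells of a type and less RNA per cell cannot be told apart.

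**Figure D2:**
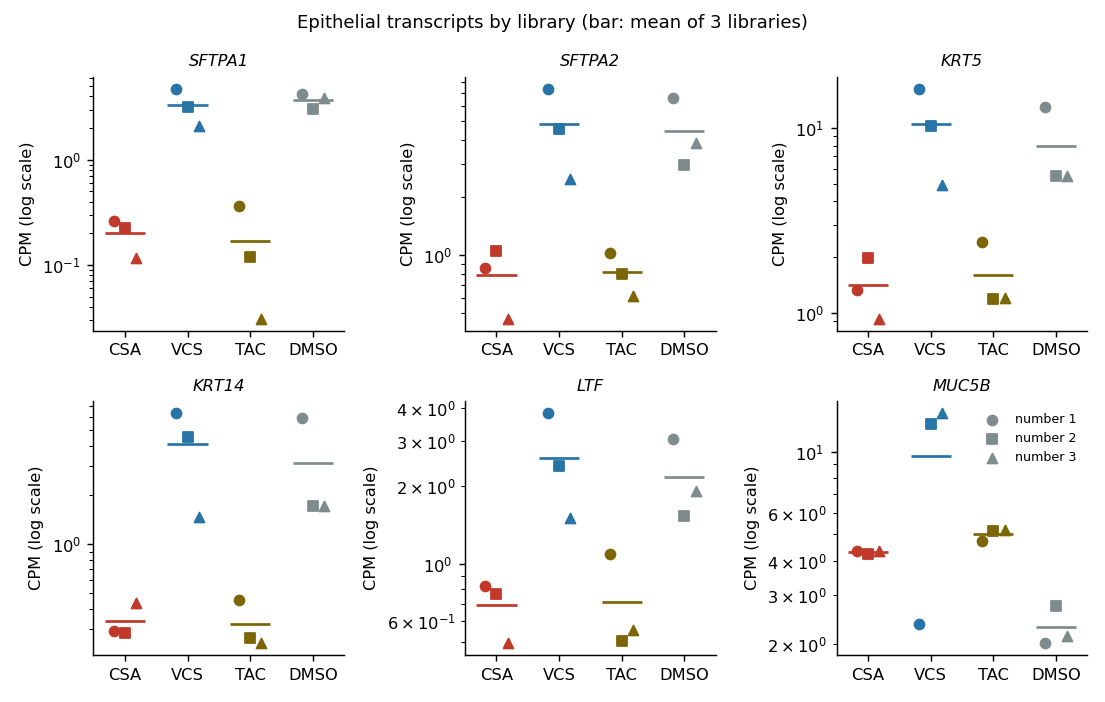
CPM (y, log scale) of the 5 genes lower in CSA and of MUC5B in each library of the CSA, VCS, TAC and DMSO groups; circles, squares and triangles are the libraries numbered 1, 2 and 3 and bars are means of 3 libraries. For the first 5 genes CSA and TAC lie under VCS and DMSO without overlap. MUC5B is highest in VCS 2 and VCS 3, with CSA and TAC below these and above DMSO and VCS 1.

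Most airway and alveolar markers lay below 0, but few passed, and some members of both epithelial lists lay above 0. Of 16 airway and alveolar markers 13 were tested, 2 passed as lower in CSA (SFTPA1 and SFTPA2), 11 lay below 0, 5 did so with an unadjusted p under 0.05, and the median was -0.61. Between same-numbered libraries the median was -0.37, -0.85 and -0.29. The lung collectin SFTPD (-1.34, SE 0.45) and the airway secretory gene BPIFB1 (-1.96, SE 0.48) leaned the same way without passing (adjusted p = 0.753 and 0.705 in edgeR). SFTPB, the hydrophobic surfactant protein, had a fitted value above 0, at 16.5, 15.5 and 9.56 CPM in CSA and 18.2, 8.6 and 6.55 CPM in VCS (0.38, SE 0.21). The lung transcription factor NKX2-1 was at 0.764, 1.27 and 0.985 CPM in CSA and 0.800, 0.636 and 1.25 CPM in VCS, with overlapping groups. The summed level of the list was 22.0 to 28.2 CPM in CSA, 32.9 to 44.4 CPM in VCS, 24.9 to 30.1 CPM in TAC and 23.1 to 34.1 CPM in DMSO, and SCGB3A2 was at 0 in every CSA and VCS library. The CSA and VCS sums did not overlap, but they include SFTPA1 and SFTPA2, which were called as lower in CSA. They also include MUC5B, which was high in only some of the VCS libraries. Whether the sums of the remaining markers separate the compounds was not tested. Of 14 basal and squamous markers 13 were tested and 2 passed as lower (KRT5 and KRT14). At an unadjusted p under 0.05 stood 3 lower and 1 higher in CSA, and the median of the list was -0.23. The summed level of the list overlapped, at 210.8 to 278.8 CPM in CSA and 219.8 to 294.4 CPM in VCS. Most of that sum was DSC3, a desmosomal cadherin, and the basal regulator TP63 had 10, 2 and 5 counts in CSA and 7, 16 and 8 counts in VCS. Of 13 endothelial markers tested none passed, 9 lay below 0, 2 of them with an unadjusted p under 0.05, and the median was -0.15. Their fitted values ran from -2.02 to 0.28, and the endothelial marker PECAM1 was at -2.02 in the fit with no filter on low counts. Between same-numbered libraries the endothelial median was -0.36, 0.12 and -0.36. The part of admixed RNA or cells in the 5 called genes was not tested.

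The gene called higher in CSA shares sequence with RPS26, a far more abundant transcript. ENSG00000196656 (chr4:113214046-113217170, minus strand) had 304, 235 and 195 counts in CSA and 0, 0 and 0 counts in VCS, with 0, 1 and 0 counts in TAC and 63, 244 and 409 counts in DMSO. Its level was at least 75.1-fold higher in CSA if each VCS library is set to 3 counts (adjusted p = 0.0226 in edgeR). This bound covers counting error only, not how reads shared with other genes were assigned. A transcript of this pseudogene, 348 bases long, is contained whole in 3 of the 4 RPS26 transcripts of GENCODE 29. Its other transcript, 284 bases long, is contained whole in 0 of the 4, and over both transcripts 73.7% of the 31-base words occur in RPS26. The following 90 bases, read from GENCODE 29 on GRCh38, are shared by both genes and are shown because a short read from them matches either.
ENSG00000196656: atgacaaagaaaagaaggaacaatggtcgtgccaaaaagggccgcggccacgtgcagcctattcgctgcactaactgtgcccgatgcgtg
RPS26 itself (chr12:56041351-56044697, plus strand), a subunit of the small ribosomal subunit, was at 232, 223 and 159 CPM in CSA and 228, 266 and 238 CPM in VCS. The pseudogene took 3.72, 3.24 and 3.44% of the summed counts of both genes in CSA and 0% in each VCS library. The sum of both differed by a log2 fold change of -0.22 (SE 0.10, adjusted p = 0.792 in edgeR). With so small a part in the pseudogene, the sum would hardly move with it. The sum therefore cannot decide whether the reads counted for the pseudogene came from RPS26.

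FAM156A and FAM156B are a pair of near-identical genes on the X chromosome. FAM156A was at 45.1, 58.6 and 64.0 CPM in CSA and 25.8, 20.1 and 15.4 CPM in VCS (log2 fold change 1.5, SE 0.28, adjusted p = 0.229). FAM156B ran the other way, at 10.8, 7.39 and 6.03 CPM in CSA and 28.2, 26.1 and 59.2 CPM in VCS (-2.09, SE 0.37, adjusted p = 0.206). All of FAM156B's 31-base words (100%) occur in FAM156A. Summed, the pair was at 55.9, 66.0 and 70.0 CPM in CSA and 54.0, 46.1 and 74.6 CPM in VCS, with overlapping groups and a log2 fold change of 0.15 (SE 0.09, adjusted p = 0.838). With the copies of all 3 pairs summed, 3 genes passed between the compounds: the SFTPA1 and SFTPA2 sum, KRT5 and KRT14.

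**Figure D3:**
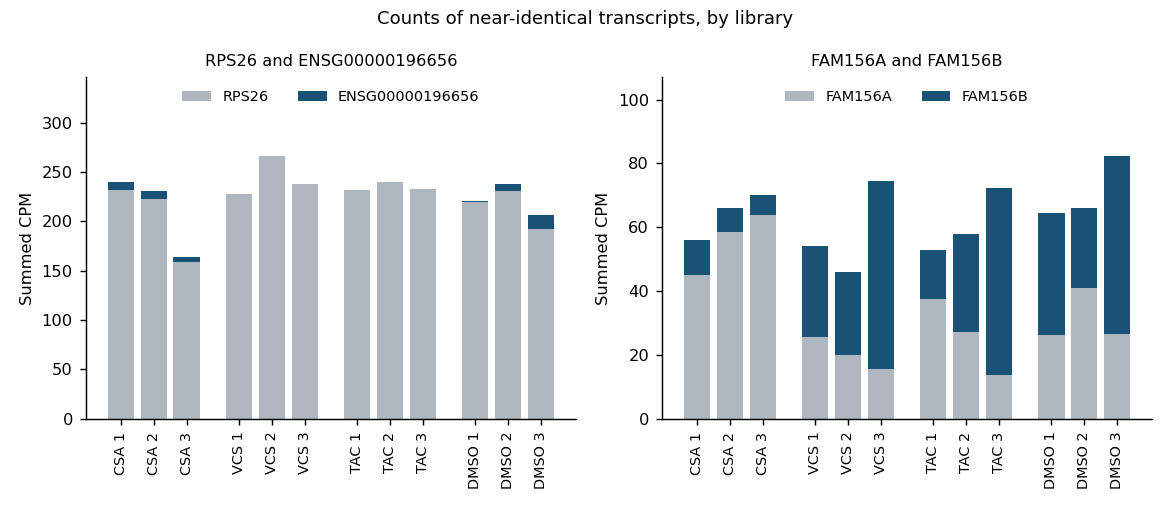
Summed CPM (y) of RPS26 with the pseudogene ENSG00000196656 (left) and of FAM156A with FAM156B (right) in each library; the dark part of a bar is the second gene of the pair. The pseudogene's part is present in the CSA and DMSO libraries and absent or nearly absent in VCS and TAC, and FAM156B takes a smaller part in CSA than in VCS, while the summed FAM156 levels overlap.

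Just outside the threshold stood H2BC26 on chromosome 1, a gene for histone H2B. It had 24, 35 and 34 counts in CSA and 1, 1 and 3 counts in VCS, with 29, 23 and 30 in TAC and 0, 2 and 0 in DMSO. The CSA and VCS libraries did not overlap, and the CSA libraries had the level of TAC while VCS had that of DMSO. The log2 fold change was 4.0 (SE 0.59, adjusted p = 0.0575), and it passed in DESeq2 (adjusted p = 0.00140), with robust estimation of the spread (0.0350) and without DMSO 2 (0.0437). Replication-dependent histone mRNAs normally lack a poly(A) tail, and these libraries were selected for it. Of its 31-base words 21.5% occur in transcripts of other genes.

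On the higher side, the smallest p-value among genes with a symbol and at least 1 CPM belonged to TGFB1, the gene of the profibrotic cytokine TGF-beta 1. TGFB1 (chr19:41301587-41353911, minus strand) was at 73.1, 66.6 and 83.2 CPM in CSA and 58.9, 54.4 and 63.7 CPM in VCS, without overlap. The log2 fold change was 0.33 (SE 0.06, interval 0.20 to 0.46) and did not pass in edgeR (adjusted p = 0.208), but did in DESeq2 (adjusted p = 0.0137). Relative to DMSO, at 67.2, 57.7 and 67.8 CPM, the CSA value was 0.21 above and the VCS value 0.12 below on the log2 scale. LTBP3, whose product binds latent TGF-beta, was at 109, 101 and 127 CPM in CSA and 90.8, 89.7 and 94.8 CPM in VCS (0.29, SE 0.07, adjusted p = 0.705). Of 22 TGF-beta targets and pathway genes tested, TGFB1 and LTBP3 among them, none passed, 15 lay above 0 and the median was 0.08. At an unadjusted p under 0.05 stood 3 higher and 1 lower in CSA, against 3.5% and 2.79% of all genes. The median of the list between same-numbered libraries was -0.03, -0.05 and 0.20 for numbers 1, 2 and 3.

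The other genes with the smallest p-values on the higher side were small shifts of expressed genes, none of which passed. SCARF2, a scavenger receptor gene, was at 54.8, 47.4 and 54.6 CPM in CSA and 40.6, 42.6 and 41.9 CPM in VCS (0.32, SE 0.07, adjusted p = 0.643). NAGLU, a lysosomal enzyme of heparan sulfate breakdown, was at 47.5, 46.0 and 48.7 CPM in CSA and 39.7, 40.4 and 34.5 CPM in VCS (0.31, SE 0.07, adjusted p = 0.685). DDR2, a collagen receptor kinase, was at 2.26, 2.68 and 3.42 CPM in CSA and 1.25, 1.64 and 1.90 CPM in VCS (0.80, SE 0.19, adjusted p = 0.692), with TAC near CSA at 2.75, 2.49 and 2.70 CPM. None of these 3 overlapped between the compounds. SCAF1 (0.30), GJD3 (0.52), ZNF628 (0.44) and SPPL2B (0.27) had adjusted p-values of 0.683 to 0.705. Of all genes tested, 601 (3.04%) had every CSA library above every VCS library and 557 (2.82%) every CSA library below.

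On the lower side 2 of the smallest p-values belonged to short non-coding RNAs. RMRP, the RNA of RNase MRP, was at 4.91, 3.66 and 1.65 CPM in CSA and 8.58, 11.2 and 6.19 CPM in VCS (-1.39, SE 0.32, adjusted p = 0.643). RNA5-8SN2, a 5.8S ribosomal RNA gene, was at 24.8, 17.3 and 7.88 CPM in CSA and 46.1, 53.9 and 19.2 CPM in VCS (-1.26, SE 0.28, adjusted p = 0.643). Both were lowest in the library numbered 3 of each of these groups. Neither RNA normally carries a poly(A) tail, so their level also depends on how much of such RNA passed the selection, which was not tested.

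Libraries VCS 2 and VCS 3 shared a set of high genes that were lower in VCS 1. MUC5B, a gel-forming mucin of airways, had 148, 133 and 150 counts in CSA and 74, 417 and 387 counts in VCS, with 157, 174 and 169 in TAC and 66, 89 and 65 in DMSO. VCS 1 thus lay with DMSO and the other VCS libraries far above all groups. IL13RA2, a decoy receptor for IL-13, had 63, 53 and 47 counts in CSA and 13, 112 and 109 counts in VCS. SSTR5-AS1, an antisense RNA, was at 0.382, 0.287 and 0.493 CPM in CSA and 0.864, 2.15 and 2.36 CPM in VCS (-2.15, SE 0.42, adjusted p = 0.337). PPP2R2C, a regulatory subunit of the phosphatase PP2A, was at 0.529, 0.541 and 0.551 CPM in CSA and 0.736, 1.91 and 2.11 CPM in VCS (-1.46, SE 0.32, adjusted p = 0.577). VCS 1 lay above every CSA library for SSTR5-AS1 and PPP2R2C but below every CSA library for MUC5B and IL13RA2. The difference of MUC5B depended on VCS 1: its log2 fold change was -1.01 (SE 0.39, adjusted p = 0.770) with all libraries and -1.58 (adjusted p = 0.00707) without VCS 1.

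Liver transcripts split the same libraries in the opposite direction. ALB, the albumin gene, was at 119, 266 and 223 CPM in CSA and 259, 113 and 119 CPM in VCS, so that CSA 1 had the level of VCS 2 and VCS 3. The 12 liver markers summed to 255.1, 506.1 and 446.0 CPM in CSA and 516.0, 256.8 and 257.2 CPM in VCS. Their median difference between same-numbered libraries was -1.18, 1.13 and 0.94 for numbers 1, 2 and 3, and no member passed (0 of 12; 0 also had an unadjusted p under 0.05). ALB had an adjusted p of 0.888. VCS 1 was thus the low VCS library for MUC5B and the high one for ALB, and what set it off was not tested.

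The genes of calcineurin and of its readout did not pass between the compounds. RCAN1, a feedback inhibitor of calcineurin whose transcription follows NFAT, was at 159, 154 and 151 CPM in CSA and 171, 183 and 153 CPM in VCS, a log2 fold change of -0.13 (interval -0.28 to 0.03). In DMSO it was at 168, 152 and 159 CPM. The catalytic subunit gene PPP3CA was at 61.3, 63.9 and 61.2 CPM in CSA and 64.5, 68.5 and 66.6 CPM in VCS, without overlap but with a difference of -0.10 (interval -0.22 to 0.02). PPP3CB differed by -0.13 and the regulatory subunit PPP3R1 by 0.05. CABIN1, an endogenous calcineurin-binding repressor, was the member with the smallest p (0.21, interval 0.05 to 0.36, adjusted p = 0.758). Of 13 calcineurin genes tested none passed, 10 lay below 0 and the median was -0.10. Of 19 NFAT targets tested none passed, 12 lay below 0 and the median was -0.05. CSF2, the NFAT target gene of GM-CSF, was at 10.9, 7.55 and 7.65 CPM in CSA and 14.5, 9.91 and 10.5 CPM in VCS, with overlapping groups (-0.42, SE 0.12, adjusted p = 0.753).

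The binding proteins of the drugs were also close between the compounds. PPIA, which encodes cyclophilin A, the main cytosolic receptor of CSA, differed by -0.12 (interval -0.34 to 0.10). PPIB, the cyclophilin of the endoplasmic reticulum, differed by -0.02 (interval -0.18 to 0.15), PPIF, the mitochondrial cyclophilin, by 0.01 and FKBP1A, the receptor of TAC, by -0.03. Of 16 cyclophilin genes tested none passed, none had an unadjusted p under 0.05, and the median was -0.04. ABCB1, the efflux pump that transports CSA, differed by -0.08 (interval -0.38 to 0.22).

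Genes of the podocyte cytoskeleton stayed within narrow intervals. SYNPO differed by 0.09 (interval -0.15 to 0.32), and its groups overlapped. ACTN4, the actin cross-linker mutated in a familial glomerulosclerosis, was at 1553, 1486 and 1675 CPM in CSA and 1449, 1345 and 1451 CPM in VCS (0.15, interval 0.00 to 0.30, adjusted p = 0.790). Of 29 contractile actin genes tested none passed and 18 lay above 0. At an unadjusted p under 0.05 stood 5, all higher in CSA: INF2, CNN2, ARHGDIA, MYH9 and ACTN4. Of all genes tested 3.5% stood there as higher. The median of the list between same-numbered libraries was 0.04, -0.01 and -0.02, so its sign changed with the number. For WT1 the interval was wide, -1.13 to 0.27, since it had 20 to 46 counts in these libraries. TRPC6, the podocyte calcium channel, had 0, 1 and 1 counts in CSA and 6, 1 and 2 counts in VCS and was not tested. FOXC2, a podocyte transcription factor, was at 27.9, 29.1 and 22.4 CPM in CSA and 22.5, 22.2 and 21.0 CPM in VCS (0.27, SE 0.08, adjusted p = 0.753).

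**Figure D4:**
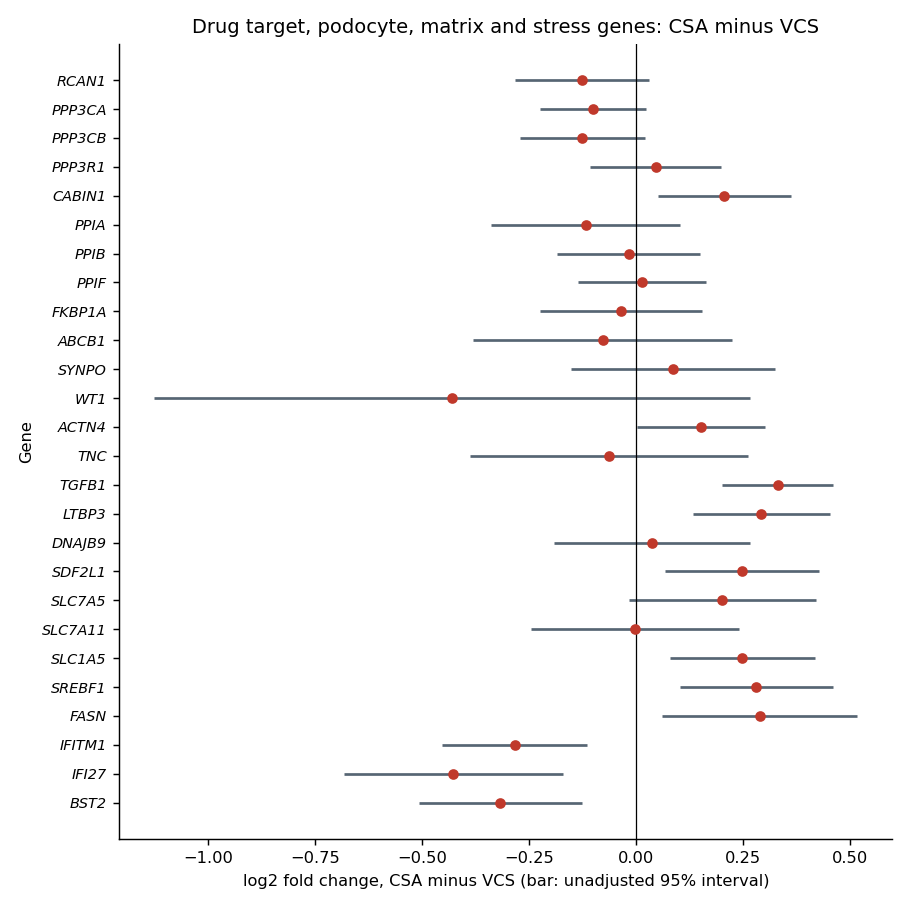
Log2 fold change, CSA minus VCS, with its unadjusted 95% interval (x) for genes of calcineurin, drug binding, the podocyte, TGF-beta, stress, lipid synthesis and interferon (y). The intervals of WT1, IFI27, BST2 and FASN reach beyond plus or minus 0.5, those of the other genes shown do not, and none of these genes passed an adjusted p under 0.05.

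The medians of the matrix lists lay above 0 in the libraries numbered 3 and below 0 in the others. For 21 basement membrane genes the median difference between same-numbered libraries was -0.20, -0.13 and 0.44 for numbers 1, 2 and 3, and for 29 interstitial matrix genes it was -0.16, -0.15 and 0.33. Integrin and focal adhesion genes showed -0.11, -0.21 and 0.35. The fitted medians were 0.06, 0.04 and 0.02, and none of these genes passed. The last of each of these differences is between CSA 3 and VCS 3, which had 9.68% and 13.4% mitochondrial counts. Whether that share bears on these medians was not tested. TNC, the matrix glycoprotein tenascin C, differed by -0.06 (SE 0.15), with CSA 0.56 and VCS 0.62 above DMSO on the log2 scale. COL6A3, a collagen VI chain, was at 5.56, 5.73 and 3.19 CPM in CSA and 8.86, 7.82 and 6.01 CPM in VCS, without overlap (-0.66, SE 0.21, adjusted p = 0.753).

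Stress and lipid lists had no gene past the threshold, and their medians were small. In the unfolded protein response list 20 of 25 genes lay above 0, none passed and the median was 0.10, with same-number medians of 0.01, -0.07 and 0.31. SDF2L1, an endoplasmic reticulum chaperone component, was at 29.2, 30.4 and 32.3 CPM in CSA and 25.0, 25.7 and 26.7 CPM in VCS, without overlap (0.25, SE 0.08, adjusted p = 0.753). DNAJB9, another chaperone gene of this response, differed by 0.04 (SE 0.11). Of 37 ATF4 targets 25 lay above 0 and the median was 0.05. Other stress lists had no such excess: 7 of 15 heat shock genes, 9 of 22 NRF2 targets and 9 of 18 p53 targets lay above 0, with medians of -0.01, -0.02 and -0.00. The amino acid transporter SLC1A5 was at 209, 214 and 231 CPM in CSA and 179, 195 and 178 CPM in VCS (0.25, SE 0.08, adjusted p = 0.753). SLC7A5 differed by 0.20 and SLC7A11, the cystine transporter, by -0.00, with SLC7A11 0.59 and 0.60 above DMSO under CSA and VCS. Of 18 fatty acid synthesis genes 15 lay above 0 and the median was 0.05, with same-number medians of 0.00, -0.03 and 0.28. FASN, fatty acid synthase, was at 155, 148 and 154 CPM in CSA and 150, 133 and 96.9 CPM in VCS, where the low value of VCS 3 made most of the difference (0.29, SE 0.10, adjusted p = 0.770). Of 28 lysosome and autophagy genes 22 lay above 0 and the median was 0.07, with same-number medians of 0.05, -0.01 and 0.18.

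Most interferon-stimulated genes lay below 0 in the fit, but not in every pair of same-numbered libraries. Of 42 tested 31 lay below 0, 6 of them with an unadjusted p under 0.05, none passed, and the median was -0.09. Every CSA library lay below every VCS library for 0 of the 42 and above for 1, against 2.82% and 3.04% of all genes. IFITM1, a membrane protein that restricts viral entry, was at 28.6, 23.4 and 20.1 CPM in CSA and 31.5, 29.8 and 26.1 CPM in VCS, with DMSO at 35.9, 38.3 and 30.3 CPM (-0.28, SE 0.08, adjusted p = 0.753). IFI27 was at 111, 76.7 and 47.5 CPM in CSA and 114, 111 and 80.0 CPM in VCS (-0.43, SE 0.12). BST2, the tetherin gene, was at 97.9, 57.4 and 58.5 CPM in CSA and 106, 83.8 and 72.3 CPM in VCS (-0.32, SE 0.09). CSA 1 overlapped VCS for all 3, and the median of the list was -0.03, -0.24 and 0.01 for same-numbered libraries 1, 2 and 3.

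Over the 40 gene lists, which held 739 tested genes, 38 had no gene past the threshold. The median difference between same-numbered libraries had the same sign at all 3 numbers for 4 lists: below 0 for NFAT targets and for the airway and basal epithelial markers, and above 0 for immediate-early genes, whose fitted median was 0.04. For the other 36 lists the sign changed with the replicate number. For NFAT targets the value at number 3 was -0.01, close to 0. The numbers are not shown to pair CSA with VCS, and signs set at random would also agree for some lists. A shared sign is therefore described here and was not tested.

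**Figure D5:**
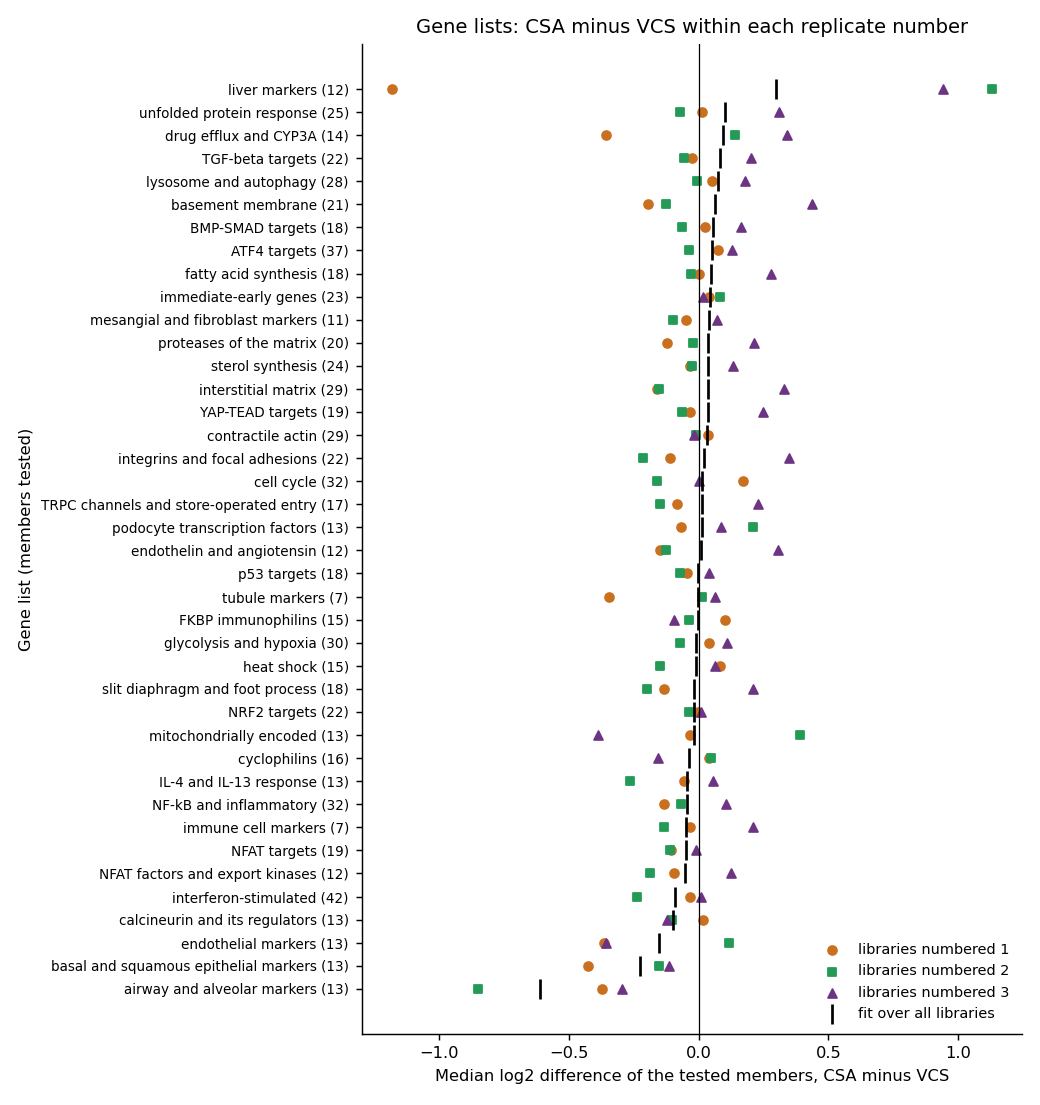
Median log2 difference, CSA minus VCS, of the tested members of each of 40 gene lists (y, number tested in parentheses) between the libraries numbered 1 (circles), 2 (squares) and 3 (triangles), with the median of the fit as a black tick (x). Liver markers change sign between number 1 and numbers 2 and 3, matrix and adhesion lists lie above 0 at number 3 alone, and airway and alveolar markers lie below 0 at every number.

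Set beside the vehicle, 6 genes passed for CSA against DMSO (0.0303%), 1 higher and 5 lower, and none of 19784 for VCS against DMSO in edgeR. At an unadjusted p under 0.05 stood 2254 genes (11.4%) for CSA and 2179 (11%) for VCS, and DESeq2 called 61 and 41. Without the replicate block 2 genes passed for CSA and 1 for VCS. The count for CSA was 1 without DMSO 1, 2 without DMSO 3 and 3 without CSA 2, VCS 1, VCS 2, TAC 2 or DMSO 2. The count for VCS was 15 without VCS 1, 4 without CSA 3, 3 without DMSO 3, 2 without VCS 3 and 1 without CSA 1 or DMSO 1, and it was 278 without the 4 libraries numbered 3. The 6 genes for CSA were SFTPA1, SFTPA2, KRT5 and the interferon-stimulated genes IFI44L and IFITM1, all lower, and H2BC26, higher (log2 fold change 5.24, adjusted p = 0.0286). These counts share the DMSO libraries and are not a test between the compounds. Between CSA and VCS, IFITM1 did not pass.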

How the data were processed

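Poly(A) RNA was sequenced from 12 libraries, 3 in each of 4 groups. Per the submitters' processing notes, Salmon and the GRCh38 genome were used; versions and the annotation release are not given in the sources used here. The deposited table holds whole numbers per gene, whose unit was read to be estimated counts (expected counts), rounded by the authors. The labels mention UMIs and ERCC RNAs, and whether UMIs were collapsed is not stated. Totals ran from 28808213 to 36077072. Of 62262 genes 22339 had no count in any library, and 62252 identifiers matched a name or annotation. Positions came from GENCODE 29 on GRCh38. Reads of overlapping and antisense genes cannot be told apart, since the counting's use of strand is not stated.

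Low genes were removed with edgeR's filterByExpr (edgeR 4.0.16, R 4.3.3, minimum count 10). Counts were TMM-scaled, and a quasi-likelihood fit to the 12 libraries had terms for group and replicate number and left 6 residual degrees of freedom. The pair CSA and VCS is the only pair of compounds tested here. P-values are two-sided and adjusted by Benjamini-Hochberg over all 19784 genes, and a gene passed under 0.05. The SE is the size of the log2 fold change divided by the square root of F, and intervals are unadjusted 95% intervals; 1 gene had none. CPM are computed from the counts and the TMM factors. Deviations of same-numbered CSA and VCS libraries from their group means correlated at 0.091, 0.0766 and 0.189, not all over 0.1, so the numbers are not shown to pair these 2 groups. All 18 same-number correlations over the 6 pairs of groups were above 0, and in 3 pairs of groups (CSA with DMSO, VCS with TAC, TAC with DMSO) all were over 0.1. Most different-number correlations were below 0, but some exceeded a same-number value. VCS 2 correlated at 0.263 with DMSO 1 against 0.0975 with DMSO 2, and CSA 1 at 0.144 with VCS 2 against 0.091 with VCS 1. The code was tested on simulated data.

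Named genes were 23 genes of calcineurin, drug binding, podocytes and earlier results, of which 1 is not reported here, every gene past the threshold or otherwise the smallest p-values up to 10 per direction, and up to 3 genes per list. Genes without a symbol or under 1 CPM on average were left out unless they passed or were among the 23. SFTPD, BPIFB1, SFTPB, NKX2-1, SCGB3A2, TP63, DSC3, RPS26, IFI44L and MYH9 are outside it; their values were known when they were chosen. The members and the 40 lists were chosen with earlier results of these data known. Alternatives were RLE scaling, no filter, DESeq2 1.42.0, only the groups compared, no replicate block, robust estimation, each library left out and the libraries numbered 3 left out. Summing near-identical copies was added after seeing the data.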

Additional observations from a re-analysis of the deposited data

Results flagged for a closer look

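Each of the 6 genes that passed between the compounds is a gene whose effect under CSA and effect under VCS, both against DMSO, differed by the test of CSA against VCS in edgeR. SFTPA1 differed by a log2 fold change of -4.02 (adjusted p = 0.00362), with -4.25 under CSA and -0.22 under VCS. KRT5 differed by -2.79 (adjusted p = 0.00463), with -2.43 under CSA and 0.37 under VCS. SFTPA2 differed by -2.55 (adjusted p = 0.00811), with -2.49 under CSA and 0.06 under VCS. KRT14 differed by -3.45 (adjusted p = 0.0226), with -3.0 under CSA and 0.45 under VCS. LTF differed by -1.84 (adjusted p = 0.0355), with -1.62 under CSA and 0.22 under VCS. For these 5 genes 3 of 3 CSA libraries lay under 3 of 3 VCS libraries, as for 557 of all genes tested (2.82%). This order is fixed in part by how the 5 genes were chosen. ENSG00000196656 was at least 75.1-fold higher in CSA than in VCS (adjusted p = 0.0226 in edgeR), with a floor of 3 counts per VCS library. That bound covers counting error only, not how shared reads were assigned. In DMSO this pseudogene had 63, 244 and 409 counts. Summed with RPS26, with which it shares sequence, the log2 fold change was -0.22 (adjusted p = 0.792 in edgeR). The pseudogene was too small a part of that sum for the sum to bear on its call. Its own call was lost with robust estimation of the spread (adjusted p = 0.745) and in 5 of 12 fits with a library left out: CSA 2, VCS 2, VCS 3, TAC 1 or TAC 2. Groups of 3 libraries are too small to test for single outlying values.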

How the results depend on the processing

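The numbers of genes called for CSA against VCS, CSA against DMSO and VCS against DMSO were 6, 6 and 0. They became 170, 664 and 527 with no filter on low counts, and 19, 61 and 41 in DESeq2. With only the groups compared in the fit, CSA against DMSO gave 3 and VCS against DMSO gave 3. With no replicate block the 3 counts were 2, 2 and 1, so the block changed which genes passed. Without the 4 libraries numbered 3, CSA against VCS gave 15 and VCS against DMSO 278. Leaving out each library in turn gave 1 to 13, 1 to 8 and 0 to 15 genes, and summing near-identical copies gave 3 for CSA against VCS. The share of genes with an interval within plus or minus 1 was 78.7%, 40.7% with no filter and 72.1 to 76.2% with a library left out. The cause of these moves was not tested; the fits differ in the genes or libraries they hold.

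SFTPA1 passed under 20 of 20 alternatives (adjusted p up to 0.0402; in 1 it was summed with SFTPA2). KRT5 passed in 18 of 20, SFTPA2 in 16 of 19, ENSG00000196656 in 13 of 19, KRT14 in 11 of 20 and LTF in 6 of 20, and none changed direction. KRT5 was lost without VCS 2 (adjusted p = 0.0677) and without the block (0.189), SFTPA2 without CSA 1 (0.0872), VCS 2 (0.0976) or the block (0.189). ENSG00000196656 was lost with robust estimation (0.745) and without CSA 2, VCS 2, VCS 3, TAC 1 or TAC 2 (0.0518 to 0.175). KRT14 was lost without CSA 1, CSA 2, VCS 1, VCS 2, TAC 1, TAC 2 or DMSO 3, with only the groups compared and without the block (0.0509 to 0.250). Of the fits without a single library LTF passed in those without VCS 3 and DMSO 2. Over these alternatives 793 list medians moved by no more than the standard deviation of the list's own 3 same-number medians, and 7 by more. That yardstick is wide, so a change of sign can fall within it. Liver markers, for example, had same-number medians of -1.18, 1.13 and 0.94 beside a fitted median of 0.30. Genes of a few counts, such as H2BC26 in VCS, limit what the depth can show.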
